A study of Homo sapiens with 2 samples.

Results

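The LHX9 KLHL1 neurons were 416 of the 31818 cells kept from human inner ear organoids, 377 of 21319 cells from GelNB-CH and 39 of 10499 cells from Matrigel. A cell was counted among them when it held at least 5 UMIs (unique molecular identifiers, 1 for each captured mRNA molecule) of the neuronal genes STMN2, DCX and ELAVL4 together, at least 2 UMIs of LHX9, KLHL1 and LMO1 together, and none of NEUROD1 or PPP1R17. Cells were left out with 5 or more UMIs of OC90, made by otic epithelium, 5 or more of COL1A2, a collagen of mesenchyme, or 3 or more of CDH19, a cadherin of glia. A barcode was examined if 1000 or more genes were detected in it and no more than 15% of its UMIs came from mitochondrially encoded genes. Because the members were chosen by these measured counts, the levels of the 11 genes of the rule describe the choice and carry no test.

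Inner ear organoids are aggregates of pluripotent stem cells that are steered with growth factors towards the tissue from which the inner ear forms. Both groups came from SOX2nT cells, a line made from WA25 human embryonic stem cells, whose red nuclear reporter follows SOX2, and were collected on day 40 after Accutase for 90 min and a sort for reporter-positive cells. Aggregates of the GelNB-CH group were set on day 11 into a light-cured gel of that name with 0.1 wt% PEG4SH and received 0.02% oDex on day 15. The Matrigel group is named by its title and treatment label, and its growth text repeats the GelNB-CH steps, so no step of its own is described in the sources used here. Both growth texts also list FGF-2, SB-431542, BMP-4 at 0.5 ng/mL, LDN193189 at 200 nM and Matrigel at 2% on day 0. They list CHIR99021 at 3 µM until day 18, which is after the day 11 and day 15 steps. For the Matrigel group these treatments rest on the repeated text alone. Each group is 1 library, pooled from an unstated number of aggregates, so the comparison has no replicate check, no p-value is given, and every interval covers counting error only.

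LHX9 and LHX2 encode LIM homeodomain transcription factors that in mouse and chick mark commissural neurons of the dorsal spinal cord and hindbrain, which also carry the homeobox genes BARHL1 and BARHL2. LMO1 encodes a LIM-only protein that competes for the cofactor used by LIM homeodomain factors, and KLHL1 encodes an actin-binding Kelch protein of neurons. NEUROD1 is the basic helix-loop-helix factor of inner ear ganglion neuron precursors, PPP1R17 encodes a phosphatase inhibitor, SLC17A6 the vesicular glutamate transporter VGLUT2, and MYT1L a neuron-specific zinc finger repressor.

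In GRCh38, as annotated by GENCODE v29, LHX9 lies on the plus strand at chr1:197911902-197935478, KLHL1 on the minus strand at chr13:69700594-70108493 and LMO1 on the minus strand at chr11:8224304-8268716. The promoters of these 3 genes are shown because they define the cells: each is the 250 bases before the gene's first start in the RefSeq table of GRCh38.p14, written along the gene's own strand. They lie at chr1:197912214-197912463 (plus), chr13:70108453-70108702 (minus) and chr11:8268788-8269037 (minus). The annotations place some starts differently: by the GENCODE coordinates the LHX9 window lies inside the gene and the KLHL1 window overlaps the start of its gene. Capitals mark every TAATTA, a core bound by homeodomain proteins, and every CAGATG or its reverse complement CATCTG, an E box of basic helix-loop-helix proteins, searched on both strands.
LHX9: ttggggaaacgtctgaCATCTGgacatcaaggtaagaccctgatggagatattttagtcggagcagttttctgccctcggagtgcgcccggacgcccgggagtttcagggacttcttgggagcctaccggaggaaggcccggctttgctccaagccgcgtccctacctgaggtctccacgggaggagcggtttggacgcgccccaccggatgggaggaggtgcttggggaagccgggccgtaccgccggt
KLHL1: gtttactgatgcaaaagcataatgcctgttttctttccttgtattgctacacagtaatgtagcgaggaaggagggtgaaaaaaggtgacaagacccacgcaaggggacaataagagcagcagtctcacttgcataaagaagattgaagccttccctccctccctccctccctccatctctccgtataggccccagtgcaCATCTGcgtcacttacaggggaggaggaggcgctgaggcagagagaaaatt
LMO1: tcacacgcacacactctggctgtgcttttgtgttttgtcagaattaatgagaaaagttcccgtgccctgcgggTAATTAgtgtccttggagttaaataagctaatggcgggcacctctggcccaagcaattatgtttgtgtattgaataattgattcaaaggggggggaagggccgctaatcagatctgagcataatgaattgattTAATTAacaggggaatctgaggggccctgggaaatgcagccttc
The LHX9 window held 1 E box, 234 bases before the start, and the window of the gene's other listed start held none of these letters. The KLHL1 window held 1 E box, 51 bases before the start, and the LMO1 window held 2 TAATTA cores, 177 and 44 bases before it. Of 35116 promoter windows of the same length in the table, 12.2% held that E box and 4.35% held TAATTA. A match says only that these letters are present.

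The LHX9 KLHL1 neurons took a larger share of the GelNB-CH cells than of the Matrigel cells. They were 1.77% of kept cells in GelNB-CH (exact Clopper-Pearson 95% interval 1.60 to 1.95%) and 0.371% in Matrigel (0.264 to 0.507%), a ratio of 4.76 (95% interval 3.42 to 6.80). Cells that met the same neuronal and exclusion limits but held at least 2 UMIs of NEUROD1 and PPP1R17 and none of LHX9, KLHL1 or LMO1, called NEUROD1 PPP1R17 neurons here, went the other way. There were 286 of them in GelNB-CH (1.34%) and 474 in Matrigel (4.51%), a ratio of 0.297 (0.256 to 0.345). Neurons of every kind, 1154 in GelNB-CH and 630 in Matrigel, differed less between the libraries, with a ratio of shares of 0.902 (0.818 to 0.996). Among those neurons the LHX9 KLHL1 kind made up 32.7% in GelNB-CH (30.0 to 35.5%) and 6.19% in Matrigel (4.44 to 8.37%). Of the other neurons, 99 in GelNB-CH and 29 in Matrigel met the LHX9 limit but held a NEUROD1 or PPP1R17 UMI, and 220 and 36, in the same order of libraries, held no UMI of the 5 genes.

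**Figure D1:**
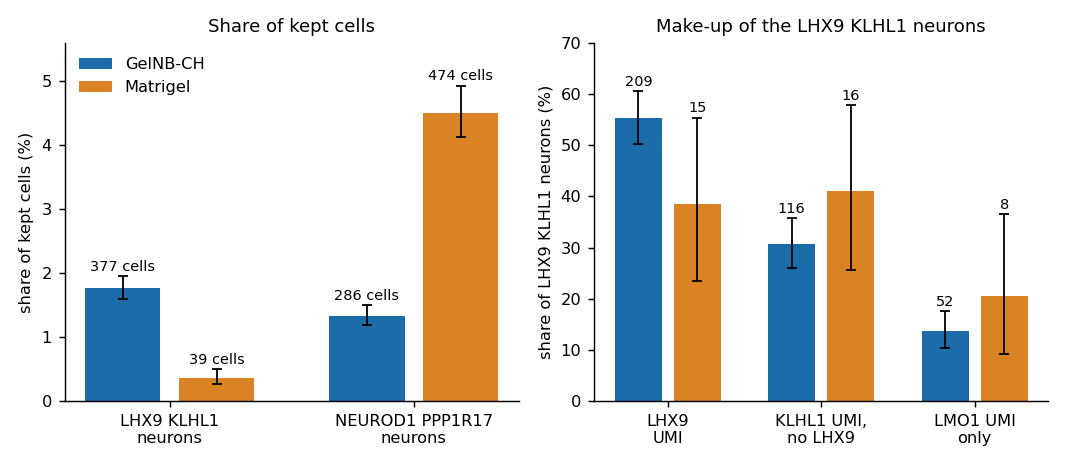
Bars give the share of kept cells (left, %) that were LHX9 KLHL1 or NEUROD1 PPP1R17 neurons, and the share of LHX9 KLHL1 neurons (right, %) by the first rule gene detected, in the GelNB-CH and the Matrigel library, with exact 95% intervals and cell counts. The LHX9 KLHL1 share is 1.77% in GelNB-CH against 0.371% in Matrigel, and the NEUROD1 PPP1R17 share is 1.34% against 4.51%.

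The counts behind the rule varied widely between members. The neuronal genes summed to between 5 and 196 UMIs per member in GelNB-CH, with a median of 26, and to between 9 and 112 in Matrigel, with a median of 54. LHX9, KLHL1 and LMO1 summed to between 2 and 28 UMIs in GelNB-CH and to between 2 and 32 in Matrigel, with a median of 5 in each. Just inside the limit, with exactly 2 UMIs of the 3 genes, were 68 GelNB-CH and 8 Matrigel members, and just outside it, with 1 UMI, were 103 and 15 cells. The GelNB-CH members were also the shallower ones, with a median of 6966 UMIs and 2930 genes per cell, against 12168 UMIs and 4381 genes in Matrigel. Over all kept cells the medians were 9265 UMIs in GelNB-CH and 14403 in Matrigel. Kept cells with at least 5000 UMIs, 19345 in GelNB-CH and 10077 in Matrigel, were also thinned to that number, and shallower cells were left out. Of these, 1.42% of GelNB-CH and 0.327% of Matrigel cells met the rule, a ratio of 4.34 (3.02 to 6.43). Members with at least 5000 UMIs were 310 of 377 in GelNB-CH and all 39 in Matrigel. The 39 Matrigel members held 497995 UMIs in all, so 3 UMIs there equal 6.02 CPM (UMIs of a gene per 1000000 UMIs summed over the cells), while the 2969043 UMIs of the GelNB-CH members put 3 UMIs at 1.01 CPM.

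The libraries held 21743 GelNB-CH and 10912 Matrigel barcodes with 247006223 and 178672097 UMIs in that order of libraries, and 78 barcodes occurred in both, none of them a member in both. The Scrublet caller marked 8.49% of GelNB-CH members and none of the Matrigel members as doublets, against 14.4% and 6.66% of all kept cells of those libraries. SOX2 itself, the gene of the sorted reporter, gave 20 UMIs in the GelNB-CH members and 0 in the Matrigel members.

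The 5 marker genes of these cells were present, the general neuronal ones in most members and the others in part of them. STMN2, which destabilises microtubules in growing axons, was detected in 98.7% of GelNB-CH and 100% of Matrigel members, and MYT1L in 86.5% and 89.7%. LHX9 was detected in 55.4% of GelNB-CH and 38.5% of Matrigel members, KLHL1 in 52.3% and 53.8%, and SLC17A6 in 51.7% and 66.7%. Thinned to 5000 UMIs, which left 310 GelNB-CH and 39 Matrigel members, the shares were 49.4% and 33.3% for LHX9, 46.1% and 46.2% for KLHL1, and 45.2% and 43.6% for SLC17A6. The name therefore covers cells with any of the 3 rule genes, and a member without an LHX9 UMI was common in both libraries. Cells that should lack these transcripts held few of them: LHX9 had a UMI in 0.102% of 5890 GelNB-CH and 0 of 4361 Matrigel mesenchyme-gated cells (at least 5 COL1A2 UMIs and no neuronal-gene UMI), which had a median of 9553.5 and 14502 UMIs. The count of 0 allows a share of up to 0.0688%, taken as 3 cells of the total. In the same cells KLHL1 was found in 0.374% and 0.459%, SLC17A6 in 0.034% and 0.138%, and MYT1L in 0.374% and 0.344%. LMO1 was less clean, with a UMI in 1.61% and 0.94% of them and in 4.49% and 4.18% of otic-gated cells, of which there were 6486 in GelNB-CH and 1988 in Matrigel.

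The members fell into unlike cells by which rule gene they carried. With an LHX9 UMI there were 209 members in GelNB-CH (55.4%, 50.3 to 60.5%) and 15 in Matrigel (38.5%, 23.4 to 55.4%). A KLHL1 UMI without LHX9 occurred in 116 GelNB-CH members (30.8%) and 16 Matrigel members (41.0%), and LMO1 alone in 52 (13.8%) and 8 (20.5%). Rule genes define this split, so only the other genes are described across it, from UMIs summed over the cells and scaled to CPM.

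LHX2, BARHL1, BARHL2, TCF7L2 and LMO3 were highest in the cells with LHX9 in both libraries. In GelNB-CH the level of LHX2 was 166 CPM in cells with LHX9, 68.3 CPM in cells with KLHL1 but not LHX9, and 75.4 CPM in cells with LMO1 alone, and in Matrigel it was 291, 4.90 and 58.8 CPM in those cells. The BARHL1 level was 58.0, 3.20 and 6.46 CPM in the 3 kinds of GelNB-CH cell and 11.4, 0 and 0 CPM in Matrigel, where it rests on 2 UMIs. For TCF7L2, the transcription factor that carries Wnt signals to their target genes, the levels were 499, 76.9 and 36.6 CPM in GelNB-CH and 103, 0 and 8.41 CPM in Matrigel. Cell by cell the pattern was the same: LHX2 had a UMI in 56.0% of GelNB-CH members with LHX9 and 28.6% of those without, and in 73.3% and 16.7% of the Matrigel members. Either BARHL gene had a UMI in 40.2% of GelNB-CH members with LHX9 and 4.17% of those without, and in 26.7% and 0% of the Matrigel members.

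LHX1 and the GABA-synthesis genes GAD1 and GAD2 sat in the other cells. LHX1, a LIM homeodomain gene of many inhibitory neurons in mouse hindbrain and spinal cord, stood at 3.83 CPM in GelNB-CH cells with LHX9, 88.6 CPM in those with KLHL1 but not LHX9, and 2.15 CPM in those with LMO1 alone. In Matrigel it was found only in the KLHL1 cells without LHX9, at 58.8 CPM and 12 UMIs from 3 cells. GAD2 followed it, with 2.55, 77.9 and 2.15 CPM in GelNB-CH and 0, 68.6 and 0 CPM in Matrigel. Of the 26 GelNB-CH members with a GAD2 UMI, 76.9% also held LHX1, against 3.70% of those without GAD2, and in Matrigel 3 of 4 did. PEG10, an imprinted gene derived from a retrotransposon, was lowest in cells with LHX9, at 504, 1279 and 1123 CPM in the 3 kinds of GelNB-CH cell and 251, 4161 and 555 CPM in Matrigel.

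LMX1B, a LIM homeodomain gene of dorsal and serotonergic neurons in mouse, was lowest in the cells with LHX9. Its level was 6.38 CPM there, 31.0 CPM with KLHL1 but not LHX9 and 30.2 CPM with LMO1 alone in GelNB-CH, and 0, 68.6 and 58.8 CPM in those cells of Matrigel. Genes that the members shared regardless of the rule gene included MYT1L, at 432, 428 and 317 CPM in GelNB-CH and 326, 505 and 311 CPM in Matrigel. The Matrigel values rest on 15, 16 and 8 cells.

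**Figure D2:**
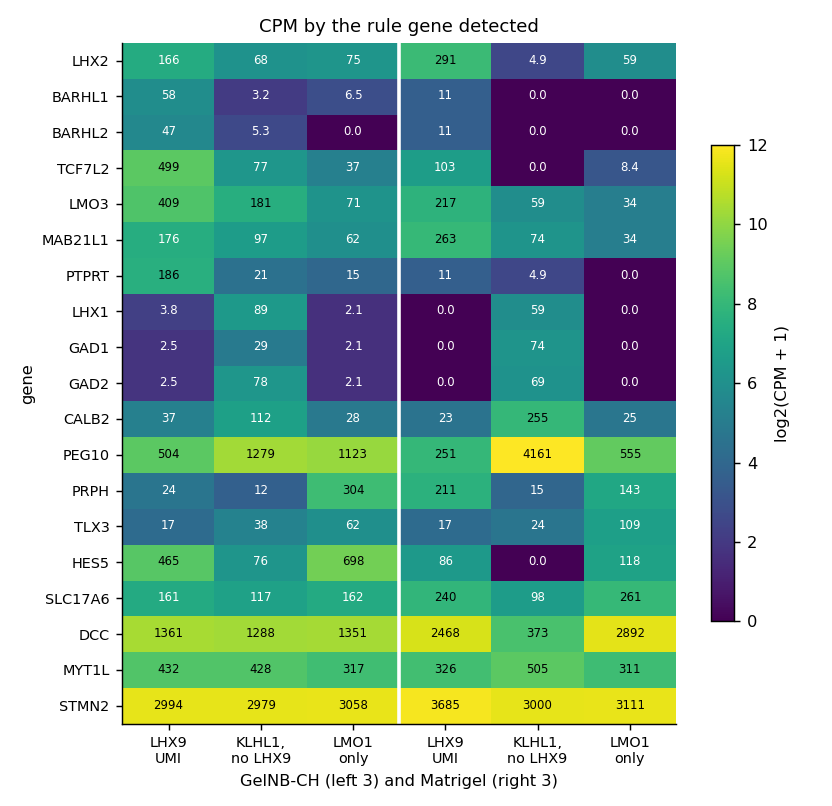
Each tile gives the CPM of a gene summed over the LHX9 KLHL1 neurons that hold an LHX9 UMI, a KLHL1 UMI without LHX9, or an LMO1 UMI alone, in GelNB-CH (left 3 columns) and Matrigel (right 3 columns), coloured by log2(CPM + 1). LHX2 and TCF7L2 are highest in the LHX9 columns, at 166 and 499 CPM in GelNB-CH, and GAD2 and LHX1 in the KLHL1 columns, at 77.9 and 88.6 CPM in GelNB-CH.

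Transmitter genes divided the members as well. SLC17A6 had 148 CPM in GelNB-CH, against 187 CPM in Matrigel members, a ratio of 0.790 (0.630 to 0.999), and was found in every kind of member. Of the 195 GelNB-CH members with an SLC17A6 UMI, 1.03% also held GAD1, GAD2 or SLC32A1, the vesicular GABA transporter, against 17.6% of members without it. In Matrigel 0 of 26 did so, which allows a share of up to 11.5%, taken as 3 cells of the total, against 38.5% of the 13 without. Glutamatergic and GABAergic genes thus stood mostly in separate cells, and the other transmitter genes were scarce: SLC6A5, the glycine transporter of inhibitory neurons, had 0 UMIs in both libraries, SLC17A7 had 1 in each, and SLC17A8 had 4 in GelNB-CH and 1 in Matrigel. None of the 15 acetylcholine and monoamine genes reached 20 CPM.

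Among peptide genes, ADCYAP1, which encodes the neuropeptide PACAP, had 70.4 CPM in GelNB-CH members and 151 CPM in Matrigel members, a ratio of 0.467 (0.357 to 0.617). TAC1, the substance P precursor, had 17.9 and 52.2 CPM in that order, a ratio of 0.342 (0.210 to 0.570), and 21 of its 26 Matrigel UMIs came from 1 cell. SCG2, a granin of secretory vesicles, showed 134 CPM in GelNB-CH, against 145 CPM in Matrigel, a ratio of 0.925 (0.718 to 1.21). The ADCYAP1 and TAC1 intervals lay below 1 and the SCG2 interval spanned it, but in cells with LHX9 the ADCYAP1 ratio was 0.595 with an interval that spanned 1 (0.357 to 1.05).

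Of the genes that set position along the neural axis, the HOX genes gave few counts and the Iroquois genes many. The 20 HOX genes listed, which mark hindbrain and spinal levels, gave 36 UMIs in GelNB-CH and 16 in Matrigel, with 11 and 16 of them at 0. IRX2, an Iroquois homeobox gene of early neural patterning, had 187 CPM in GelNB-CH, against 185 CPM in Matrigel, and IRX3 had 52.9 and 52.2 CPM in that order of libraries. EN2, a homeobox gene of midbrain and anterior hindbrain, had 22.2 CPM in GelNB-CH, against 42.2 CPM in Matrigel, a ratio of 0.527 (0.318 to 0.907). PAX6 had 0 UMIs in both libraries, which is up to 1.01 CPM in GelNB-CH, against 6.02 CPM in Matrigel. Of 13 position genes with at least 5 CPM in either library, 3 had an interval of the ratio, GelNB-CH over Matrigel, below 1 and none above, with a median log2 ratio of 0.02. Over the 12977 genes at that level, 6.45% had an interval above 1 and 9.24% below.

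Next the LHX9 KLHL1 neurons were set beside the NEUROD1 PPP1R17 neurons of the same library. Of 7554 genes with at least 20 CPM in a kind of neuron in each library, 561 (7.43%) were at least 2-fold higher in the LHX9 KLHL1 neurons in both libraries and 418 (5.53%) were at least 2-fold lower. The rule split these cells by measured genes, so these counts describe the split and are not a test. They nevertheless show which other genes follow it.

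Many brain and spinal cord transcription factors were higher in the LHX9 KLHL1 neurons, and some were lower. POU3F2, a factor of neuronal differentiation, had 130 CPM in GelNB-CH LHX9 KLHL1 neurons against 5.42 CPM in NEUROD1 PPP1R17 neurons, and 139 against 0.496 CPM in Matrigel. MAB21L1, a gene of neural and eye development, had 133 against 3.61 CPM in GelNB-CH and 131 against 1.12 CPM in Matrigel. TFAP2B, an AP-2 factor of neural crest and hindbrain cells, had 366 against 38.2 CPM in GelNB-CH and 428 against 9.18 CPM in Matrigel. The smallest of these differences was the 9.58-fold one of TFAP2B in GelNB-CH. Of the 44 brain and spinal neuron transcription factors that could be compared, 21 were at least 2-fold higher and 9 at least 2-fold lower in both libraries. Of all 7554 genes compared, 7.43% were higher and 5.53% lower. LMO3, a LIM-only gene, had 285 against 5.42 CPM in GelNB-CH and 108 against 4.96 CPM in Matrigel, and LHX2 had 121 against 23.8 CPM and 118 against 20.6 CPM. Of 11 LIM homeodomain and LMO genes compared, 6 were higher and 1 was lower, LMO1 and LHX9 of the rule among the higher ones.

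Sensory ganglion genes were mostly on the NEUROD1 side. ISL1, a LIM homeodomain factor of sensory and motor neurons, had 4.04 CPM in GelNB-CH LHX9 KLHL1 neurons against 330 CPM in NEUROD1 PPP1R17 neurons, and 2.01 against 325 CPM in Matrigel. ISL1 gave 12 UMIs in the GelNB-CH members and 1 UMI in the Matrigel members. The mechanosensitive channel gene PIEZO2 was low in the same way, at 6.4 against 216 CPM in GelNB-CH and 6.02 against 387 CPM in Matrigel. Of 21 sensory ganglion genes compared, 13 were at least 2-fold lower in both libraries and 5 were higher, against 5.53% and 7.43% of all genes. POU4F1 and TLX3, factors that sensory ganglion and dorsal spinal neurons share, were present on both sides: POU4F1 had 73.8 against 165 CPM in GelNB-CH and 64.3 against 182 CPM in Matrigel.

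Part of the guidance receptor, adhesion and glutamate receptor genes were also at least 2-fold higher, and few were lower. DCC, the netrin receptor of commissural axons, had 1337 CPM in GelNB-CH LHX9 KLHL1 neurons against 92.4 CPM in NEUROD1 PPP1R17 neurons, and 1711 against 16.5 CPM in Matrigel. ROBO1, a receptor of the midline repellent SLIT, had 2553 against 127 CPM in GelNB-CH and 2404 against 82.0 CPM in Matrigel. NEGR1, an adhesion protein of the neuron surface, had 380 against 9.93 CPM in GelNB-CH and 353 against 11.4 CPM in Matrigel. The Matrigel NEGR1 level was uneven by rule gene. It was 80 CPM with LHX9, 789 CPM with KLHL1 but not LHX9 and, from 1 UMI, 8.41 CPM with LMO1 alone. In GelNB-CH those cells had 340, 496 and 282 CPM. DCC was uneven in Matrigel too, at 2468, 373 and 2892 CPM in that order, against 1361, 1288 and 1351 CPM in GelNB-CH. Of the axon guidance receptors 24 could be compared, of which 11 were higher and 2 lower, and of 47 adhesion genes 21 were higher and 4 lower. Synaptic release genes showed 9 of 23 higher and none lower by the same measure. Over all genes compared, 7.43% were higher and 5.53% lower. Of 15 glutamate receptor genes 6 were higher and 2 lower, and the whole list summed to 1516 against 1809 CPM in GelNB-CH and to 1267 against 1568 CPM in Matrigel. GRIA1, an AMPA receptor subunit, had 99.7 against 3.31 CPM in GelNB-CH and 60.2 against 0.744 CPM in Matrigel. SCN2A, a voltage-gated sodium channel gene, had 47.2 CPM against 0 UMIs in GelNB-CH, at least 52.2-fold higher, and 34.1 against 1.12 CPM in Matrigel.

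**Figure D3:**
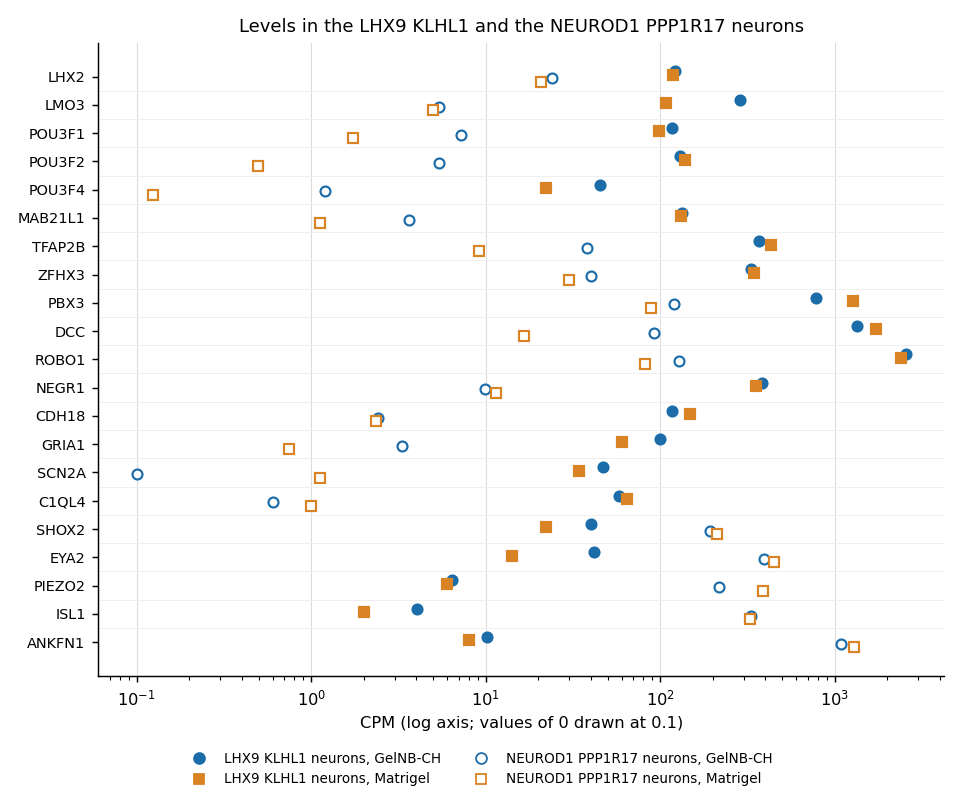
Points give the CPM (log axis, 0 drawn at 0.1) of each gene in LHX9 KLHL1 neurons (filled) and NEUROD1 PPP1R17 neurons (open) of the GelNB-CH (circles) and Matrigel (squares) libraries. From LHX2 to C1QL4 the filled points lie right of the open ones, and from SHOX2 to ANKFN1 they lie left, as with ISL1 at 4.04 against 330 CPM in GelNB-CH.

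Within the LHX9 KLHL1 neurons the libraries were then compared. Of 8096 genes with at least 20 CPM in either library, 315 (3.89%) were at least 2-fold higher and 298 (3.68%) at least 2-fold lower in GelNB-CH than in Matrigel. With TMM normalisation in edgeR, which moves every log2 ratio up by 0.13, the split was 419 higher and 180 lower. Over the 12977 genes with at least 5 CPM in either library the median log2 ratio was −0.06. The make-up by rule gene differs between the libraries, so ratios within cells with an LHX9 UMI are given beside those over all members where they change the reading. Ratios were ranked with counts under 3 UMIs held at 3. The 24 genes with the largest ratios in either direction were mostly cartilage genes on the higher side, and genes with between 10 and 26 UMIs in the Matrigel members on the lower side.

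The cartilage genes COL9A1, COL2A1, COL9A3, EPYC, HAPLN1, MATN1, MATN4, CNMD and MGP, which encode collagens and other matrix proteins, were 9 of the 12 largest ratios. COL2A1 had 405 CPM in GelNB-CH, against 20.1 CPM in Matrigel members, a ratio of 20.2 (10.9 to 42.2). MATN1 had 85.9 CPM in GelNB-CH and 0 UMIs in Matrigel, at least 14.3-fold higher. The 22 GelNB-CH members with at least 5 COL2A1 UMIs held 94.2% of the 1202 COL2A1 UMIs, and no Matrigel member had as many. The median log2 ratio of the 5 cartilage markers was 4.27, and 1.53 without those cells. CNMD, at 12.5 over all members, had a ratio of 0.896 without them. The 8 mesenchyme markers summed to 169 CPM in GelNB-CH, against 74.3 CPM in Matrigel members, with none at 0 in either, and the 8 otic epithelium markers to 80.8 and 56.2 CPM, with 0 and 4 of them at 0. The part of these transcripts in other differences was not tested beyond leaving out those cells.

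PTPRT, HS6ST3 and CRYM made up the rest of the 12. PTPRT, a receptor tyrosine phosphatase of neurons, had 107 CPM in GelNB-CH, against 6.02 CPM in Matrigel, where it rests on 3 UMIs, a ratio of 17.8 (6.03 to 86.7). In cells with an LHX9 UMI the PTPRT ratio was 16.2 (4.46 to 135). HS6ST3, a heparan sulfate sulfotransferase gene, had 90.6 CPM in GelNB-CH, against 8.03 CPM in Matrigel, a ratio of 11.3 (4.35 to 41.7), and all 4 of its Matrigel UMIs came from 1 cell. CRYM, a crystallin-family gene whose product binds thyroid hormone, had 65.0 CPM in GelNB-CH and 2.01 CPM, from 1 UMI, in Matrigel, a ratio of 32.4 (5.74 to 1285). The low ends of these 3 intervals lay above 1. In GelNB-CH, CRYM had 52.9 CPM in cells with LHX9, 44.8 CPM with KLHL1 but not LHX9, and 147 CPM with LMO1 alone. The cartilage gene MATN1 was also highest with LMO1 alone, at 65.7, 84.3 and 157 CPM in that order. PTPRT and HS6ST3 were instead lowest with LMO1 alone, at 15.1 and 8.62 CPM. Whether CRYM shared the cells of the cartilage transcripts was not tested.

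Transcription factors differed between the libraries in both directions, and the median of their list lay close to that of all genes. The median log2 ratio of 60 brain and spinal neuron transcription factors was 0.11, with 11 intervals above 1 and 9 below, against 6.45% and 9.24% of all genes. TCF7L2 had 294 CPM in GelNB-CH, against 38.2 CPM in Matrigel members, a ratio of 7.70 (4.90 to 12.8), and was detected in 36.8% and 5.13% of members after thinning to 5000 UMIs. Within cells with an LHX9 UMI, the ratio was 4.86 (3.05 to 8.24). LMO3 had 285 CPM in GelNB-CH, against 108 CPM in Matrigel, a ratio of 2.62 (1.99 to 3.52), and 1.89 (1.36 to 2.69) in cells with LHX9. BARHL1 had 32.7 CPM in GelNB-CH and, from 2 UMIs, 4.02 CPM in Matrigel, a ratio of 8.13 (2.19 to 68.1). TCF7L2, LMO3 and BARHL1 were thus higher in GelNB-CH both over all members and, with BARHL1 at 5.08 (1.37 to 42.6), in the cells with LHX9. FOXP2, a forkhead factor, was higher too, at 409 CPM in GelNB-CH, against 223 CPM in Matrigel, a ratio of 1.83 (1.51 to 2.25).

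Other factors were lower in GelNB-CH. MEIS2, a TALE homeobox gene, had 159 CPM in GelNB-CH, against 309 CPM in Matrigel, a ratio of 0.513 (0.427 to 0.619), and 0.328 (0.259 to 0.418) in cells with LHX9. PBX3, whose product pairs with MEIS proteins on DNA, had 775 and 1265 CPM in that order of libraries, a ratio of 0.613 (0.561 to 0.670). UNCX, a homeobox gene of spinal interneurons and somites, had 39.4 CPM in GelNB-CH, against 84.3 CPM in Matrigel, a ratio of 0.467 (0.326 to 0.682). LMX1B had 17.9 and 42.2 CPM, a ratio of 0.423 (0.251 to 0.739), and its UMIs lay mostly in cells without LHX9 in both libraries. The 4 intervals lay below 1. The interval of LHX2 spanned 1 over all members, at 121 CPM in GelNB-CH, against 118 CPM in Matrigel with a ratio of 1.02 (0.775 to 1.37), but in cells with LHX9 the ratio was 0.571 (0.422 to 0.787).

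The calcium-binding protein gene CALB2 and the axon gene CNTN2 show how few cells carry some differences. CALB2 had 59.3 CPM in GelNB-CH, against 118 CPM in Matrigel, a ratio of 0.500 (0.371 to 0.684), and the Matrigel UMIs came from 5 cells. In cells with LHX9 the CALB2 ratio turned to 1.62 (0.599 to 6.14). CNTN2, an adhesion protein of commissural axons, had 5.39 CPM in GelNB-CH, against 52.2 CPM in Matrigel, a ratio of 0.103 (0.0517 to 0.200), from 16 UMIs in 13 cells and 26 UMIs in 5 cells, of which 1 cell held 15. NPFFR2, a neuropeptide FF receptor gene with the smallest ratio, 0.028 (0.00304 to 0.126), rests on 2 UMIs in GelNB-CH and 12 in 3 Matrigel cells.

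HES5, a Notch target of neural progenitors, had 379 CPM in GelNB-CH, against 58.2 CPM in Matrigel, a ratio of 6.5 (4.5 to 9.75), and 5.42 (3.27 to 9.74) in cells with LHX9. After thinning, it had a UMI in 20.3% of GelNB-CH and 7.69% of Matrigel members, so most members of either library had no UMI of it. In GelNB-CH, 55.3% of members with a UMI of NHLH1, a factor of newly born neurons, also held HES5, against 11.6% of members without one, and in Matrigel 3 of 13 did, against 0% of the others. Among the 8 central nervous system progenitor markers, which summed to 1270 CPM in GelNB-CH, against 592 CPM in Matrigel, VIM had 770 and 408 CPM, a ratio of 1.89 that became 0.960 without called doublets, and PAX6 was at 0 in both.

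Heat shock chaperone genes were higher in GelNB-CH throughout. All 14 had a ratio above 1, with 12 intervals above 1, against 6.45% of all genes, and a median log2 ratio of 0.82. DNAJB1, a co-chaperone induced by heat shock factor, had 307 CPM in GelNB-CH, against 46.2 CPM in Matrigel, a ratio of 6.65 (4.40 to 10.5), and 4.73 (2.69 to 9.22) in cells with LHX9. HSPA1A, an inducible HSP70, had 506 CPM in GelNB-CH, against 114 CPM in Matrigel, a ratio of 4.42 (3.39 to 5.86), though its near-identical copy HSPA1B could share its reads. HSP90AA1 had 3145 and 1781 CPM, a ratio of 1.77 (1.65 to 1.89). Summed per cell thinned to 5000 UMIs, these genes gave a median of 39 UMIs in GelNB-CH and 20 in Matrigel members. The same list was higher in other cells too, with a median log2 ratio of 0.81 in NEUROD1 PPP1R17 neurons and 0.41 over all kept cells. Mitochondrially encoded genes, whose median log2 ratio was 0.36 in the members, 0.27 in NEUROD1 PPP1R17 neurons and 0.18 over all kept cells, lay on the same side. Of 19 cell cycle genes, 15 had at least 5 CPM in the members of either library, with a median log2 ratio of 2.05, or 0.31 without members called doublets, and 18 did in NEUROD1 PPP1R17 neurons, with a median of −1.09.

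The median of the hypoxia and glycolysis genes lay on the other side. Their median log2 ratio was −0.29 over 24 genes, with 1 interval above 1 and 4 below, against 6.45% and 9.24% of all genes, and it was −0.54 in NEUROD1 PPP1R17 neurons and −0.37 over all kept cells. Summed per cell thinned to 5000 UMIs, they gave a median of 12 UMIs in GelNB-CH and 11 in Matrigel members, but a mean of 13.6 and 15.6. By the median per cell they were thus not lower in GelNB-CH, and by the mean they were. BNIP3, a mitophagy gene induced by low oxygen, had 97.3 CPM in GelNB-CH, against 189 CPM in Matrigel, a ratio of 0.516 (0.407 to 0.658). VEGFA, the vascular growth factor gene, had 15.8 and 44.2 CPM, a ratio of 0.358 (0.212 to 0.624). Neuronal groups had medians on both sides of 0. The median log2 ratio was −0.11 for pan-neuronal cytoskeleton and RNA-binding genes, 0.03 for synaptic release genes and −0.06 for voltage-gated channel genes. It was 0.39 for glutamate receptor genes, 0.42 for GABA, glycine and acetylcholine receptor genes and −0.37 for sensory ganglion genes. A median near 0 did not mean equal members: the axon guidance receptor genes, at −0.06, had 9 of 28 intervals above 1 and 7 below. Over all genes these shares were 6.45% and 9.24%. Of the 26 guidance receptor genes with at least 20 CPM, 7 were at least 2-fold higher and 2 lower, against 3.89% and 3.68% of all genes. Among them EPHA4, an ephrin receptor, had 117 CPM in GelNB-CH, against 24.1 CPM in Matrigel, a ratio of 4.85 (2.74 to 9.48). CXCR4, a chemokine receptor of migrating neurons, had 15.8 CPM in GelNB-CH, against 50.2 CPM in Matrigel, a ratio of 0.315 (0.190 to 0.535). MYT1L had 413 CPM in GelNB-CH, against 396 CPM in Matrigel.

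**Figure D4:**
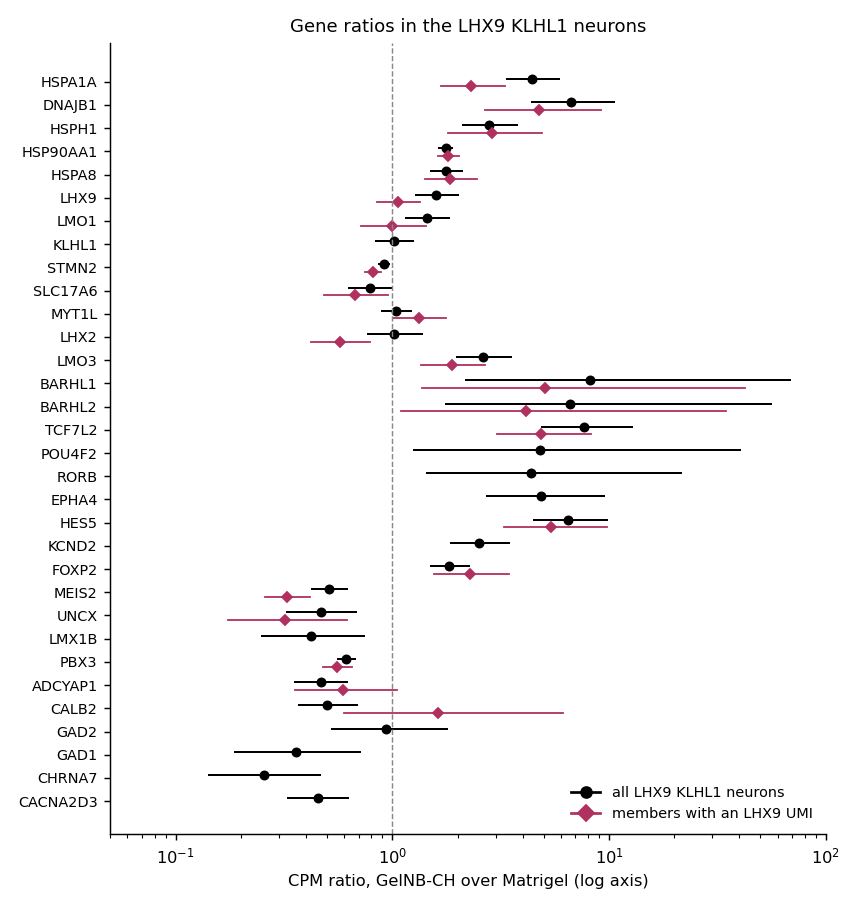
Points give the CPM ratio, GelNB-CH over Matrigel (log axis), of named genes over all LHX9 KLHL1 neurons (circles) and, where computed, over those with an LHX9 UMI (diamonds), with exact 95% intervals; the dashed line marks equal levels. DNAJB1 at 6.65 and TCF7L2 at 7.70 lie right of the line in both sets of cells, MEIS2 at 0.513 and PBX3 at 0.613 lie left of it in both.

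**Figure D5:**
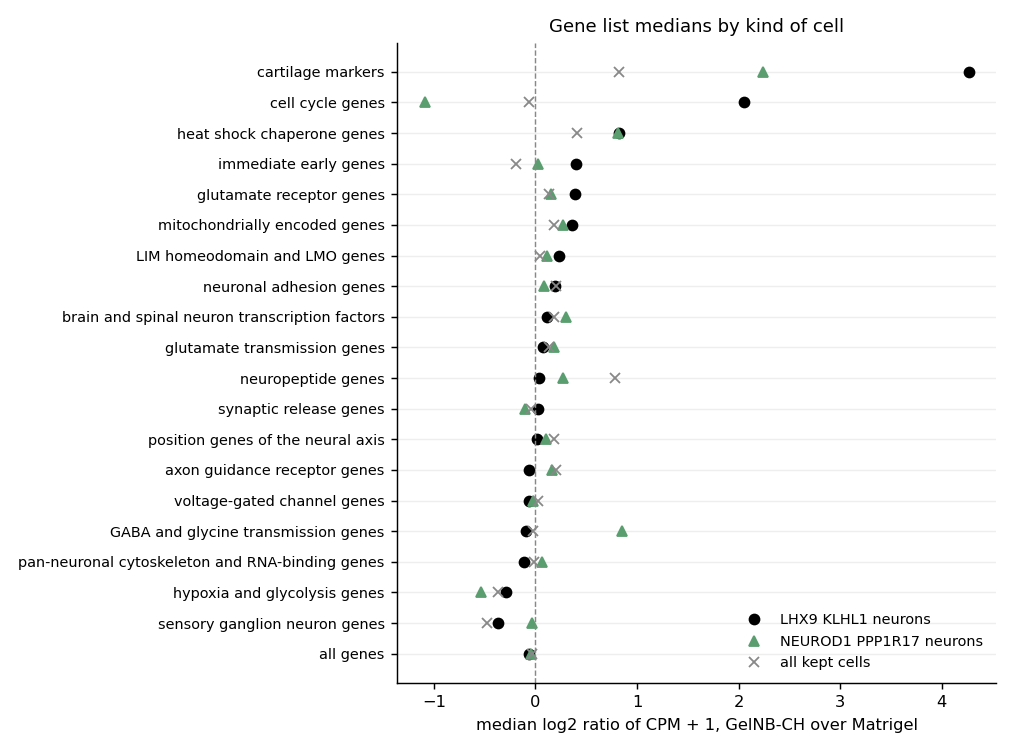
Points give the median log2 ratio of CPM + 1, GelNB-CH over Matrigel, of each gene list in LHX9 KLHL1 neurons (circles), NEUROD1 PPP1R17 neurons (triangles) and all kept cells (crosses). Heat shock chaperone genes lie at 0.82, 0.81 and 0.41, hypoxia and glycolysis genes at −0.29, −0.54 and −0.37, and cell cycle genes on opposite sides, at 2.05 and −1.09, in the 2 kinds of neuron.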

How the data were processed

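The 10x 3' assay, version 3.1, gave 2 single-cell libraries of WA25-derived organoids, 1 per group. The deposited values are raw UMI counts of each gene in each called cell, whole numbers without any scaling, per the file headers. The labels' protocols name Cell Ranger 4.0.0 as the counting software, while the file headers carry version 7.1.0. STAR and GRCh38 are named in the submitters' processing notes, and which gene annotation was used is not stated there. Of 36601 genes listed, 34616 matched GENCODE v29 by identifier.

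The rule for the members, their name, the 34 gene lists and the comparisons were chosen with earlier results of these data known. UMI counts were summed over the cells of a kind and scaled to CPM. Gene ratios have exact conditional binomial 95% intervals and shares exact Clopper-Pearson ones, all covering counting error only. UMIs remove PCR copies but free RNA can enter any droplet. Genes entered the counts of 2-fold differences with a larger CPM of at least 20. List medians used a pseudocount of 1 and genes with at least 5 CPM in either library. A count of 0 was held at 3 UMIs per library for a bound. To rank the largest ratios, every count under 3 UMIs was held at 3, while the ratios printed use the counts themselves. The order of the ranking can therefore differ from that of the printed ratios. The limit given for a share of 0 cells was 3 cells of the total and not the exact interval. The interval script was tested on simulated data.

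Named genes were fixed by rule: transcription factor, sensory ganglion, transmitter, peptide and position genes with at least 10 CPM, the 2 highest and 2 lowest ratios of each other list, the 12 largest ratios in each direction between libraries, the 15 largest in each direction between kinds of neuron, the rule genes and SOX2. MYT1L, DCC, ROBO1, PEG10, BNIP3, HSP90AA1, HSPA1A and HSPA1B were chosen after their values were seen. Doublets were kept, and removing those called by Scrublet (scanpy 1.11.5, 0.8% per 1000 barcodes) is an alternative. Cells were not clustered. Sex-linked markers, mitochondrial, ribosomal and clone-named genes were left out of the ranking, and a few genes are not reported here. Calculations used scipy 1.17.1, pandas 2.3.3 and numpy 2.4.6 under Python 3.11.15, and TMM factors came from edgeR 4.0.16 under R 4.3.3.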

Additional observations from a re-analysis of the deposited data

Results flagged for a closer look

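LHX9 KLHL1 and NEUROD1 PPP1R17 neurons differed between GelNB-CH and Matrigel in opposite directions. The ratio of shares, GelNB-CH over Matrigel, was 4.76 for LHX9 KLHL1 neurons (377 of 21319 cells against 39 of 10499) and 0.297 for NEUROD1 PPP1R17 neurons (286 against 474 cells). With 1 library per group this difference was not tested, and the cells of 1 library are not replicates.

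The medians of the cell cycle genes also lay on opposite sides. Their median log2 ratio, GelNB-CH over Matrigel, was 2.05 over 15 of 19 genes in LHX9 KLHL1 neurons, where the 19 summed to 212 CPM in GelNB-CH, against 68.3 CPM in Matrigel, and −1.09 over 18 genes in NEUROD1 PPP1R17 neurons, where they summed to 308 and 633 CPM. TOP2A, the DNA topoisomerase of dividing cells, rests on 65 UMIs in GelNB-CH members, 53 of them in 1 cell, and on 1 UMI in Matrigel members. Without members called doublets the first median was 0.31, and without members with at least 5 COL2A1 UMIs it was 0.93. This difference was not tested either.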

How the results depend on the processing

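No paired analysis was possible because each group is 1 library. The 39 Matrigel members limit every ratio, and a gene with 3 UMIs there already reads 6.02 CPM. The ratio of shares lay between 4.34 and 4.91 under 9 alternatives. The GelNB-CH share was 1.45% with at least 3 rule-gene UMIs, 2.00% with 1 NEUROD1 or PPP1R17 UMI allowed and 1.42% thinned to 5000 UMIs. None of the 9 dropped the NEUROD1 and PPP1R17 limit altogether, so the range does not cover that choice. That limit set aside 99 GelNB-CH and 29 Matrigel neurons that met the LHX9 limit, beside 377 and 39 members. Stray UMIs of either gene were commoner in Matrigel, where 2.48% of mesenchyme-gated cells carried them, against 0.781% for GelNB-CH. Counts of genes 2-fold higher and lower in GelNB-CH, 315 and 298 in the report, were 566 and 517 in members with 8000 to 16000 UMIs, 673 and 634 at a CPM minimum of 10, and 105 and 59 at a minimum of 50. They were 931 and 779 in cells with an LHX9 UMI, an alternative chosen after seeing the data, and 419 and 180 with TMM factors. Between the kinds of neuron a minimum of 50 CPM left 322 genes higher and 253 lower. The heat shock median stayed between 0.82 and 0.96. The transcription factor median was 0.24 with TMM, the hypoxia median −0.63 in cells with LHX9, and the cartilage median 1.46 without called doublets and 1.53 without cells with at least 5 COL2A1 UMIs, also chosen after seeing the data. In cells with LHX9 the ratios of CALB2 (1.62), EYS (1.56), GFRA1 (1.88), NEUROG2 (1.12), SEMA5A (1.17), TFAP2B (1.51) and NEUROD4 (0.949) crossed 1. CNMD (0.8), MGP (0.967), STMN2 (1.03) and VIM (0.960) did so without called doublets, CNMD (0.896) and STMN2 (1.01) without the COL2A1 cells, STMN2 (1.01) with TMM, and POU3F4 (0.779), PRPH (2.85) and TFAP2B (1.00) at 8000 to 16000 UMIs. The cause was not tested. Free RNA and the number of aggregates behind each library are not measured.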

Other observations

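Of 17 Kelch-like KLHL genes compared between LHX9 KLHL1 and NEUROD1 PPP1R17 neurons, KLHL1 of the rule, KLHL13 and KLHL5 were at least 2-fold higher in both libraries and none was lower, against 7.43% and 5.53% of all genes. KLHL13 had 62.3 against 18.4 CPM in GelNB-CH and 30.1 against 12.6 CPM in Matrigel. KLHL5, chosen after its values were seen, had 58.6 against 18.4 CPM in GelNB-CH and 66.3 against 19.6 CPM in Matrigel. The median log2 ratio of the KLHL genes, GelNB-CH over Matrigel, was −0.10 in the members over 24 genes. Sterol synthesis genes had a median of 0.01 over 18 genes, and genes of the ATF4 and unfolded protein response 0.17 over 22 genes.

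The 8 hair cell markers summed to 140 CPM in GelNB-CH, against 131 CPM in Matrigel members, nearly all of it from MYO6, PCP4 and CCER2. MYO6, a myosin of many epithelia, had 78.5 CPM in GelNB-CH, against 90.4 CPM in Matrigel. MYO7A and GFI1 had 0 UMIs in both libraries, ATOH1 had 0 in GelNB-CH and 1 in Matrigel members, and POU4F3 had 0.674 CPM in GelNB-CH and 0 UMIs in Matrigel. The Schwann and satellite glia markers summed to 180 CPM in GelNB-CH, against 193 CPM in Matrigel members, of which S100B, also a gene of some neurons, gave 131 and 139 CPM.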
